A study of Mus musculus with 6 samples.

Results

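The data described here are the expression values of 8 genes that mark mesenchyme, the embryonic connective tissue that surrounds a mammary bud. They comprise the intermediate filament gene Vim, the fibrillar collagen genes Col1a1, Col1a2 and Col3a1, the growth factor receptor genes Pdgfra and Pdgfrb, and the transcription factor genes Twist1 and Twist2. They were chosen as a set of known mesenchyme markers and looked up by Ensembl mouse gene identifier, and all 8 had a row among the 25949 probe sets. The gene names come from the list of identifiers drawn up for this work, since the deposited values carry identifiers alone. Expression was profiled on 6 microarrays of mammary buds from Eda-/- embryos of B6CBA background at E13.5, from 3 litters. The 3 control arrays hold buds kept for 4 h without the ligand, and the 3 Fc-Eda arrays hold buds kept for 4 h with recombinant Fc-Eda-A1 protein. Embryos of both groups lack functional Eda. Per the labels, each array is a pool of about 20 buds from 5 to 6 embryos, with the buds of each embryo divided between both conditions, so that arrays of the same replicate number form a pair. The buds were microdissected and most of the mesenchyme around them was taken off by hand, which leaves the amount of mesenchyme in a pool to the dissection.

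Mammary buds are balls of epithelium that sink into a condensed mesenchyme, and signals pass in both directions between these tissues. Mesenchymal cells carry vimentin filaments, secrete type I and type III collagen and read platelet-derived growth factors through the receptors Pdgfra and Pdgfrb, while the epithelium holds keratin filaments and sits on a basement membrane. Twist1 and Twist2 are basic helix-loop-helix proteins of mesenchymal cells that bind E-box sequences in DNA. Ectodysplasin (Eda) is a ligand of the tumor necrosis factor family that activates NF-κB through its receptor Edar, which is expressed in the epithelium. In pooled tissue, fewer mesenchymal cells and less RNA per mesenchymal cell cannot be told apart.

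The promoter windows of 4 of the genes are shown as examples. The deposited values of Col1a2 and Col3a1 were lowest in replicate 3 and those of Vim and Pdgfra in replicate 1. For Col1a2, Col3a1 and Vim this order depended on the normalization, as described with the replicates. Twist1 and Twist2, whose windows are not printed, were also lowest in replicate 3 as deposited. A link between these sequences and the differences between replicates was not tested. Each run is the 250 bases before the transcription start in RefSeq (GRCm38.p6), read 5′ to 3′ on the plus strand, from chr2:13574061-13574310 for Vim, chr6:4505368-4505617 for Col1a2, chr1:45311288-45311537 for Col3a1 and chr5:75152001-75152250 for Pdgfra. Capitals mark matches, on either strand, to TATAAA (the TATA box), CCAAT (the CCAAT box), CANNTG (the E box) and the NF-κB consensus motif.
Vim: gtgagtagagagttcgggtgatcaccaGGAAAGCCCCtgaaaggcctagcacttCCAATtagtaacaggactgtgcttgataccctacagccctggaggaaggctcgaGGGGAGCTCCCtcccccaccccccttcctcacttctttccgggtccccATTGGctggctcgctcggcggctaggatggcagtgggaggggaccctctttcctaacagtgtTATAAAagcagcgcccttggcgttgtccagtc
Col1a2: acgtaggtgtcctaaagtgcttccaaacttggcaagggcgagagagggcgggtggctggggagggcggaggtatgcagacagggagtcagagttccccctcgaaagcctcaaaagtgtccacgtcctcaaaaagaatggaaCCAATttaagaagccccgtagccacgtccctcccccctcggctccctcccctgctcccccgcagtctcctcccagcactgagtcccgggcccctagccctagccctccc
Col3a1: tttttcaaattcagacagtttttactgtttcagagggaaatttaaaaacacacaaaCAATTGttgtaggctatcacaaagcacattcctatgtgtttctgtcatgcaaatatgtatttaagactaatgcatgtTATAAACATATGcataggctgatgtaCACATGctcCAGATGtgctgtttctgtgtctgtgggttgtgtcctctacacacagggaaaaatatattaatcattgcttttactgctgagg
Pdgfra: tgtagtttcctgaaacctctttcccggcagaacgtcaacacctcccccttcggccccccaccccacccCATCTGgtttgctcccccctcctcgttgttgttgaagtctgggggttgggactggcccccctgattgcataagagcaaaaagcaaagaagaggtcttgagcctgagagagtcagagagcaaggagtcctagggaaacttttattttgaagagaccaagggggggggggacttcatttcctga
Of the 8 genes, 6 had a promoter window, and Col1a1 and Pdgfrb did not match. The NF-κB consensus motif was found in the window of Vim, at 3 positions, and in 1 of the 6 windows altogether. Among all 32851 windows of the same length 7.25% held it. The positions in Vim began at -223, -142 and -141 relative to the start, and the last 2 overlap. The E box was found in 2 of the 6 windows, with 4 matches in Col3a1 and 1 in Pdgfra, while 66.2% of all windows held at least 1. CCAAT was found in 4 of the 6, those of Vim, Col1a2, Twist1 and Twist2, against 33.8% of all windows. TATAAA was found in 3 of the 6, those of Vim, Col3a1 and Twist1, against 12.4% of all windows. In Vim it ended 27 bases before the start, and in Col3a1 and Twist1 it lay further upstream, beginning at -117 and -126. These matches describe the letters of the windows and are not shown to be bound.

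All values are log2 expression values as deposited, 1 per array and probe set. Control 1 had a median of 4.99 over its probe sets and the other 5 arrays had medians of 4.80 to 4.83, so that the arrays are not fully aligned. Correlations across probe sets lay between 0.985 and 0.994 for all pairs of arrays. No background level was available, and with 6 arrays the precision of each value is limited. The probe sets of 7 of the 8 genes were in the brightest of 10 equal groups of probe sets, ordered by their mean over the 6 arrays, and that of Twist1 was in group 7 of these 10, counted from the dimmest. Probe sets respond differently to the same amount of RNA, so these signals are not compared between genes. Epithelial and other cell type markers could not be matched to identifiers, and the epithelial share of the pools was not analysed here.

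The first question was whether 4 h of Fc-Eda changed the level of these genes. It did not detectably do so for any of the 8. In limma with the pairs as a block, 0 of the 8 genes passed a q-value of 0.05, and 0 also had an unadjusted p under 0.05. Among all 25949 probe sets, 0% passed the q-value threshold and 6.06% had an unadjusted p under 0.05. IBMT and a test of the Cyber-T type, which use other estimates of the variance, also called 0 of the 8, while they called 0.362% and 0.744% of all probe sets. The paper on these arrays reported probes changed in both directions, counting a q-value under 0.05 in any of limma, IBMT and Cyber-T. The ranges of the groups overlapped for each of the 8 genes. Groups that did not overlap made up 9.09% of all probe sets, so that 0 of 8 genes is near the share over all probe sets. None of the 8 moved in the same direction in all 3 pairs, which 28.5% of all probe sets did.

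Vim (ENSMUSG00000026728_at) encodes vimentin, the intermediate filament protein of mesenchymal cells. Its values were 11.18, 11.33 and 11.37 on the control arrays of replicates 1, 2 and 3, and 11.20, 11.26 and 11.24 on the Fc-Eda arrays. The control group spans the range of the Fc-Eda group on both sides, and both arrays of replicate 1 were below the other 4. The mean was 11.29 ± 0.10 (SD, n = 3) in control and 11.23 ± 0.03 after Fc-Eda, a log2 difference of -0.06 ± 0.08 (SE, limma q = 0.781).

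Col1a1 (ENSMUSG00000001506_at) encodes the α1 chain of type I collagen, the main fibrillar collagen of connective tissue. Its values were 9.10, 9.06 and 8.87 in control and 9.18, 9.24 and 8.75 after Fc-Eda. Both arrays of replicate 3 were the lowest, and the Fc-Eda group reached both higher and lower than the control group. The difference was 0.04 ± 0.10 (SE, limma q = 0.803).
Col1a2 (ENSMUSG00000029661_at) encodes the α2 chain that assembles with the α1 chain into the type I collagen helix. It was at 9.00, 8.96 and 8.87 in control and at 9.01, 8.98 and 8.73 after Fc-Eda. Replicate 3 was again the lowest on both arrays, and both arrays of replicate 1 were above the other 4. The difference was -0.03 ± 0.08 (SE, limma q = 0.812).
Col3a1 (ENSMUSG00000026043_at) encodes the chain of type III collagen, which is found with type I collagen in loose connective tissue. Its values were 8.43, 8.62 and 8.34 in control and 8.58, 8.54 and 8.14 after Fc-Eda, with replicate 3 the lowest in both groups. The difference was -0.04 ± 0.10 (SE, limma q = 0.812).

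Pdgfra (ENSMUSG00000029231_at) encodes a receptor for platelet-derived growth factors that is widely used as a marker of mesenchymal cells. Its values were 9.12, 9.53 and 9.50 in control and 9.27, 9.45 and 9.35 after Fc-Eda. Here both arrays of replicate 1 were below the other 4, and replicate 3 was not low. The difference was -0.03 ± 0.10 (SE, limma q = 0.825).
Pdgfrb (ENSMUSG00000024620_at) encodes the second receptor for these growth factors and is also known as a marker of the cells around small vessels. Its values were 8.60, 8.69 and 8.44 in control and 8.93, 8.66 and 8.33 after Fc-Eda. The Fc-Eda array of replicate 1 was the highest of the 6 and both arrays of replicate 3 were the lowest. The difference was 0.06 ± 0.12 (SE, limma q = 0.792).

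Twist1 (ENSMUSG00000035799_at) was at 5.74, 5.96 and 5.72 in control and at 5.77, 5.91 and 5.65 after Fc-Eda. Both arrays of replicate 2 were above the other 4 and both arrays of replicate 3 below them. The difference was -0.03 ± 0.08 (SE, limma q = 0.821).
Twist2 (ENSMUSG00000007805_at) was at 10.11, 10.24 and 10.03 in control and at 10.30, 10.31 and 10.01 after Fc-Eda. The arrays of replicate 3 were the lowest, and the highest Fc-Eda values lay just above the highest control value. The difference was 0.08 ± 0.09 (SE, limma q = 0.764).

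**Figure D1:**
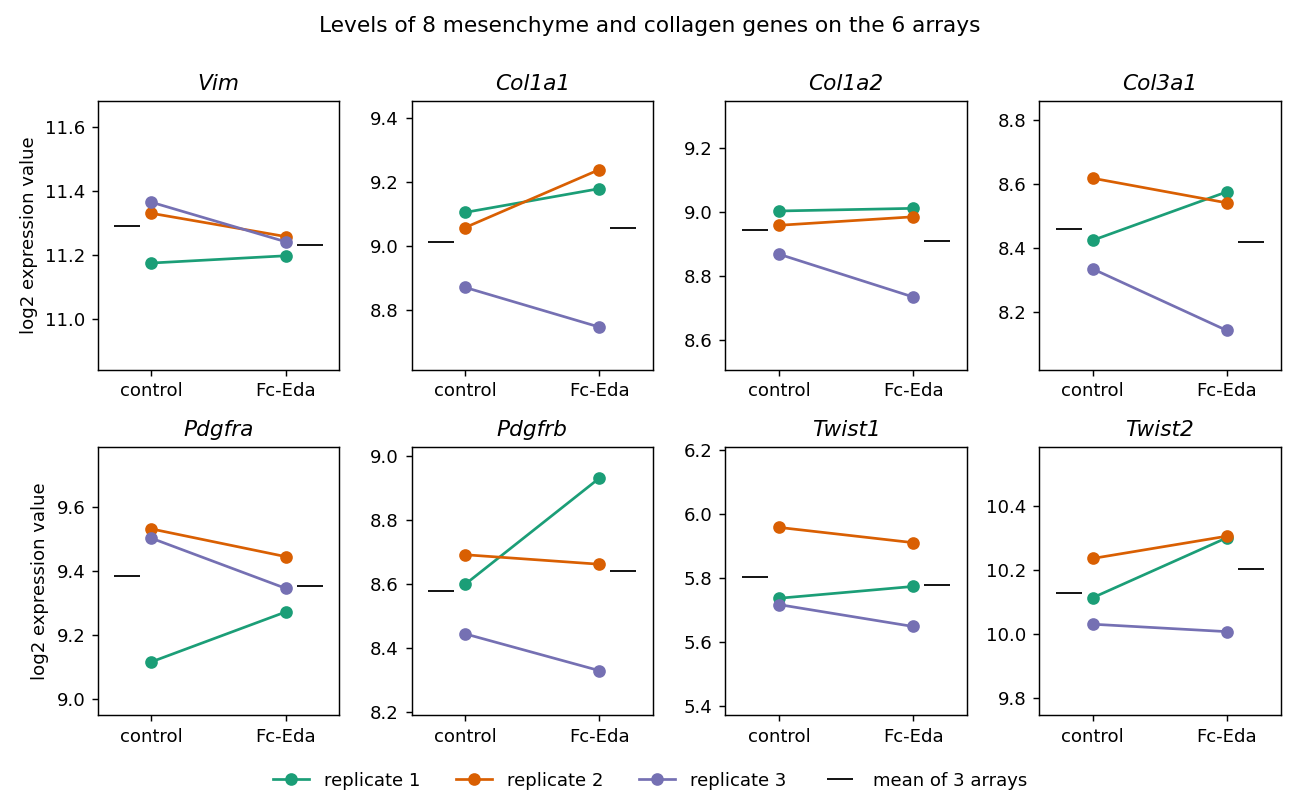
Log2 expression values of the 8 genes in control and Fc-Eda buds, with a line joining the 2 arrays of each replicate and a short bar at the mean of the 3 arrays of a group; each panel spans the same log2 range. For Col1a1, Col1a2, Col3a1, Pdgfrb, Twist1 and Twist2 both arrays of replicate 3 are the lowest, and for Vim and Pdgfra both arrays of replicate 1 are the lowest.

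The sizes that these arrays could still hide are given by the intervals of the differences. The 95% intervals of limma, read as folds of Fc-Eda over control, ran from 0.830 to 1.11 for Vim, from 0.870 to 1.22 for Col1a1, from 0.842 to 1.13 for Col1a2 and from 0.815 to 1.16 for Col3a1. They ran from 0.825 to 1.16 for Pdgfra, from 0.852 to 1.28 for Pdgfrb, from 0.851 to 1.13 for Twist1 and from 0.905 to 1.23 for Twist2. All 8 intervals hold a fold of 1. The widest is that of Pdgfrb, whose pair differences had a standard deviation of 0.24. The median absolute difference was 0.04 over the 8 genes and 0.09 over all probe sets, on the log2 scale.

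Within the pairs, the direction depended on the replicate. In replicate 1 all 8 genes were higher after Fc-Eda than in control, by 0.01 for Col1a2 to 0.33 for Pdgfrb, with a median of 0.11. In replicate 3 all 8 were lower, from -0.02 for Twist2 to -0.19 for Col3a1, with a median of -0.12. In replicate 2, Col1a1 was higher by 0.18, Twist2 by 0.07 and Col1a2 by 0.03, and the remaining 5 were lower, down to -0.09 for Pdgfra. Over all probe sets, 40.8% were higher in pair 1 and 47.7% were lower in pair 3. In the brightest of the 10 groups, where 7 of the 8 genes lie, 78.2% were higher in pair 1, with a median difference of 0.11 equal at 2 decimals to that of the 8 genes, and 46.9% were lower in pair 3, with a median of 0.01. The count of genes higher in pair 1 was 5 after quantile normalization and 5 after cyclic loess normalization, beside 52.3% and 51.0% of all probe sets. It stayed at 8 with the arrays centred on their medians, where 62.4% of all probe sets were higher. Centring moves every probe set of a pair by the same amount, those of the brightest group as well, whose share after centring was not counted. All 8 genes were lower in pair 3 under each of these. The 8 values of a pair come from the same pools, so they are not 8 separate measurements of a direction.

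**Figure D2:**
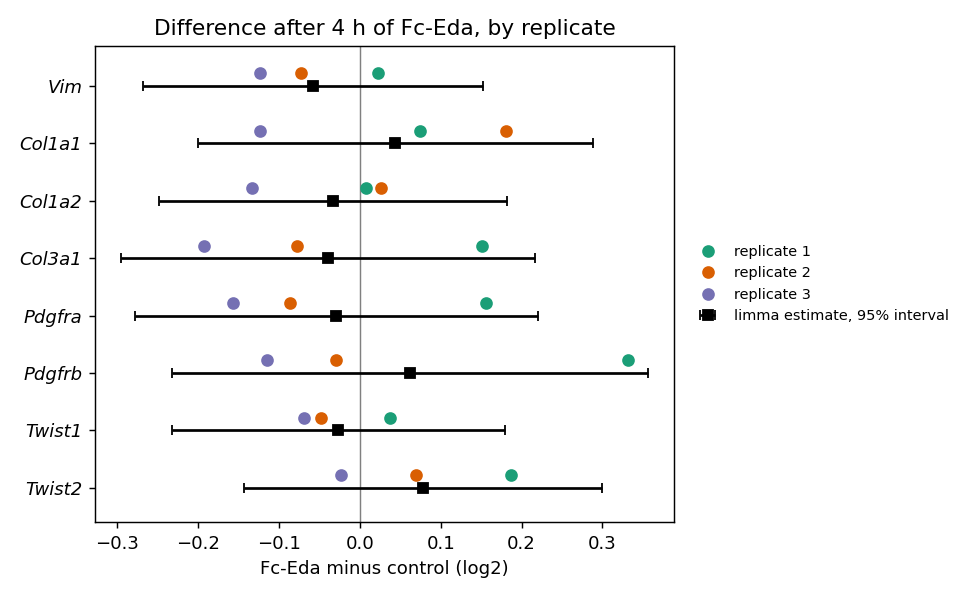
Log2 difference between Fc-Eda and control for the 8 genes, with a colored point for each replicate and, below the points, a square for the limma estimate with its 95% interval. All 8 intervals cross 0, the points of replicate 1 are all above 0 and those of replicate 3 are all below 0.

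Replicates differed more than conditions did. Of the sum of squares around the mean of the 6 arrays, the replicate number took up 61.7% for Vim, 84.9% for Col1a1, 83.9% for Col1a2 and 79.5% for Col3a1. It took up 77.3% for Pdgfra, 71.7% for Pdgfrb, 94.2% for Twist1 and 77.2% for Twist2. The median over the 8 genes was 78.4%, beside 46.5% over all probe sets, in a split that gives the replicate number 2 degrees of freedom and treatment 1. Treatment took up between 1.02% for Pdgfra and 18.3% for Vim, with a median of 2.14% beside 12.1% over all probe sets. The median standard deviation over the 6 arrays was 0.15 for the 8 genes, 0.14 over all probe sets and 0.11 in the brightest group, whose median 5 of its 7 member genes exceeded.

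Replicate 3 carried the lowest values of most of the set. Both of its arrays were below the other 4 in 6 of the 8 genes, namely Col1a1, Col1a2, Col3a1, Pdgfrb, Twist1 and Twist2, against 10.3% of all probe sets and 14.4% of the brightest group. The mean of replicate 3 minus the mean of replicates 1 and 2 was -0.34 for Col1a1, -0.19 for Col1a2, -0.30 for Col3a1 and -0.33 for Pdgfrb. It was -0.16 for Twist1 and -0.22 for Twist2. Over all probe sets the median of this difference was -0.01. The 6 genes were the same after cyclic loess normalization, Twist1 was lost after quantile normalization, and with the arrays centred on their medians Col1a1 and Pdgfrb were left.
In the other 2 genes replicate 3 was not low. Vim and Pdgfra were there 0.06 and 0.08 above the mean of the other replicates. In replicate 1 they were lower, by -0.11 for Vim and -0.26 for Pdgfra against the mean of replicates 2 and 3, and both arrays of replicate 1 were below the other 4, as in 7.06% of all probe sets and 17.5% of the brightest group, a share near that of 2 of 8 genes. After quantile and cyclic loess normalization this held for Pdgfra and not for Vim. How much mesenchyme each pool held was not measured, and its part in these differences was not tested.

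**Figure D3:**
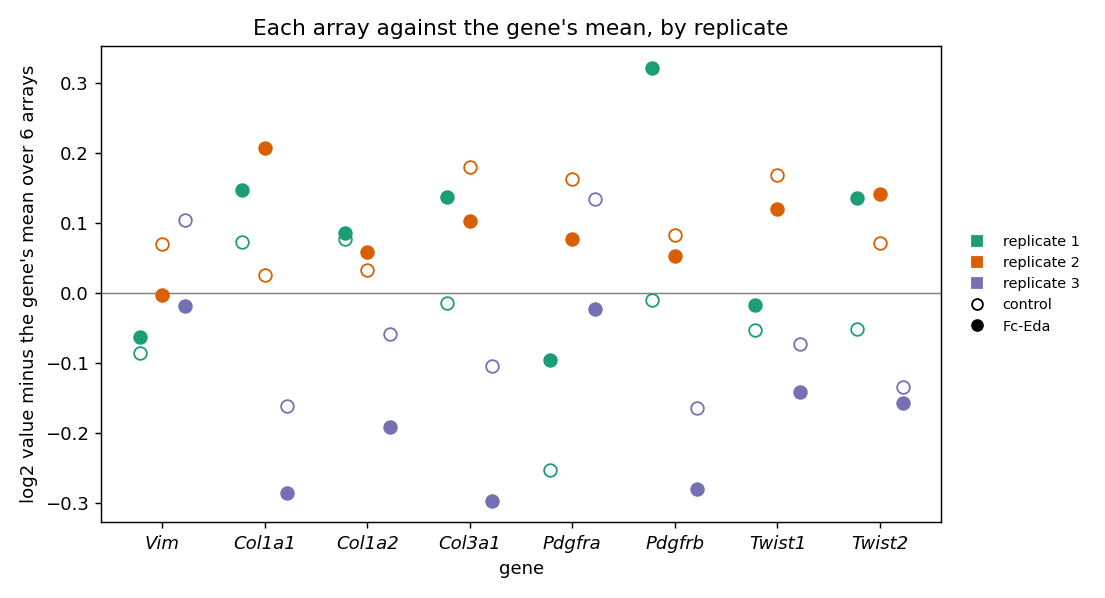
Log2 value of each array minus the gene's mean over the 6 arrays, for the 8 genes, colored by replicate, with open circles for control and filled circles for Fc-Eda. The circles of replicate 3 lie below 0 for the 3 collagen genes, Pdgfrb, Twist1 and Twist2, and those of replicate 1 lie below 0 for Vim, Pdgfra and Twist1.

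The array of control 1 stands apart from the others in its median, and the 8 genes were read as a gauge of whether its mesenchyme content differed from that of controls 2 and 3. As deposited and after quantile or cyclic loess normalization they gave no common direction. As deposited, control 1 was below both other controls for Vim and Pdgfra, above both for Col1a1 and Col1a2, and between them for Col3a1, Pdgfrb, Twist1 and Twist2. Against the mean of controls 2 and 3, the difference was -0.40 for Pdgfra, -0.17 for Vim, -0.10 for Twist1, -0.05 for Col3a1 and -0.02 for Twist2. It was 0.03 for Pdgfrb, 0.09 for Col1a2 and 0.14 for Col1a1. The median over the 8 genes was -0.04 and 3 of 8 were above 0, while over all probe sets the median was 0.08 and 61.4% were above 0. With 1 array against 2, no test was made.
The difference between controls 2 and 3, which gives the spread among the other controls, had a median of 0.20 over the 8 genes. It was positive in 7 of them, up to 0.28 in Col3a1, and -0.03 in Vim. Over all probe sets its median was -0.01 and 47.7% were above 0. Controls 2 and 3 differed by 0.03 for Pdgfra and by -0.03 for Vim, so that for both genes control 1 lay further from each of them than they lay from each other.

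The offset of control 1 varied with the level of the probe set. Among the 10 groups by level, its median was 0.26 where the mean level was 4.05, and -0.10 in the brightest, where the mean level was 8.41. Set against the median of their own group, Col1a1 was higher by 0.24, Col1a2 by 0.19, Pdgfrb by 0.13, Twist2 by 0.08 and Col3a1 by 0.04. The remaining values were -0.08 for Vim, -0.10 for Twist1 and -0.30 for Pdgfra. The count above 0 changed with the scaling. It was 3 of 8 as deposited and 5 of 8 after quantile or cyclic loess normalization. Centring the arrays on their medians moves the difference of every probe set by the same -0.17, which put 0 of 8 above 0, with a median of -0.20 for the 8 genes beside -0.26 in the brightest group. Pdgfra stayed the lowest of the 8 in each, between -0.57 and -0.30, and Col1a1 the highest, between -0.03 and 0.25.

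**Figure D4:**
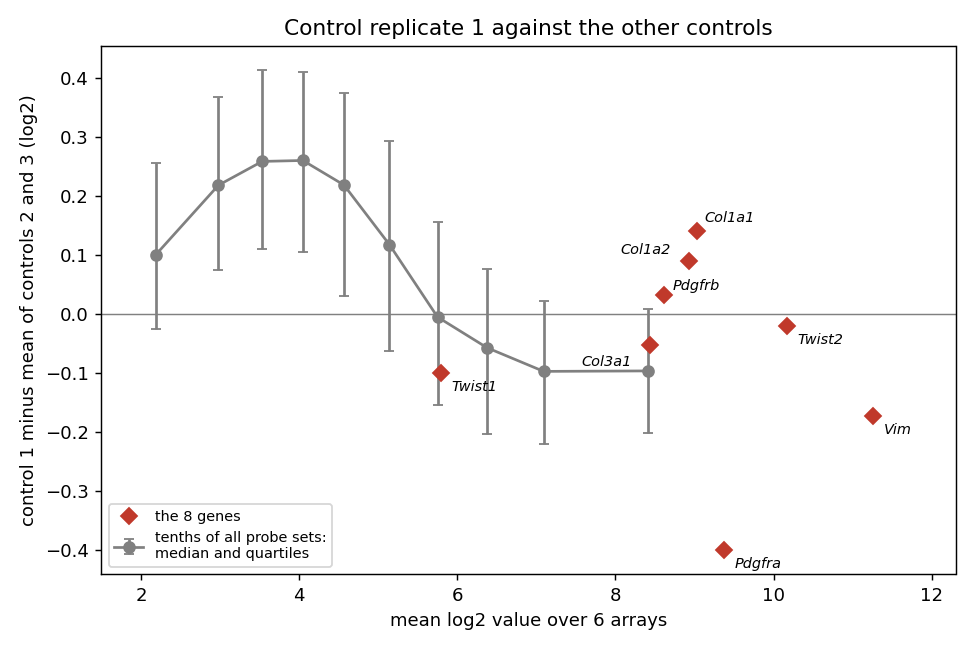
Control 1 minus the mean of controls 2 and 3 on the log2 scale, against the mean log2 value over the 6 arrays. Grey points are the medians of 10 groups of all probe sets by level, with bars at the quartiles, and red diamonds are the 8 genes, of which Pdgfra lies at -0.40 and Col1a1 at 0.14.

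The probe set with the pattern most like the mean profile of the 8 genes was ENSMUSG00000045136_at, with a Pearson r of 0.984, followed by ENSMUSG00000002274_at with 0.982. This mean profile averages genes lowest in replicate 3 with Vim and Pdgfra, which were lowest in replicate 1. The comparison is a description over 6 arrays that form 3 pairs, among 825 probe sets above the median level with a standard deviation of at least 0.3. The standard deviations of the 8 genes themselves ran from 0.07 to 0.21, so probe sets that varied as little as they did were not searched. The mean profile was lowest on the Fc-Eda array of replicate 3. ENSMUSG00000045136_at was at 8.30, 8.72 and 8.21 in control and at 8.73, 8.73 and 8.03 after Fc-Eda, also lowest there. No names are paired with these identifiers in the sources used here.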

How the data were processed

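Mammary buds of Eda-/- embryos were profiled on exon microarrays (Affymetrix, Mouse Exon 1.0 ST), 3 for control and 3 for Fc-Eda. The authors deposited log2 values, 1 per array for each of 25949 probe sets. The submitters' processing notes name RMA, and the probe set definition and the genome build are not given in the sources used here. Replicate numbers and groups were taken from the sample titles. The numbers pair the arrays, since the buds of the same embryos were divided between the conditions, and the correlation of deviations within pairs was 0.079, 0.29 and 0.29.

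Limma 3.58.1 (R 4.3.3) was run on all probe sets, in a model of treatment plus replicate number. Its p-values were converted to Storey q-values (smoothing spline of 3 degrees of freedom, lambda from 0.05 to 0.95 in steps of 0.05), with a threshold of 0.05. IBMT (loess span 0.75) and a Cyber-T type test (window of 101 probe sets, prior weight 10) were written out from their formulas. The only limit set on simulated data was on the mean estimated difference, which does not check the variances, p-values or q-values. Other alternatives were no block, limma with trend and robust moderation, the methods' t-test, Benjamini-Hochberg adjustment, a filter at the median level, centring, quantile normalization and leaving out each pair. Cyclic loess was chosen after seeing the data.

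The members and lists were chosen with earlier results of these data known. All 8 genes were named, and the rule for the most similar patterns was the highest Pearson r with the mean profile of the 8. The 15 lists of other markers, with 143 entries, were not analysed, because 0 identifiers matched the reference table. Promoter sequences are from RefSeq.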

Additional observations from a re-analysis of the deposited data

How the results depend on the processing

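None of the 8 genes passed the threshold under any of the 14 alternatives, some of which called 0 of all probe sets, as listed below. With no replicate block 0 of the 8 genes passed and the smallest q among them was 0.962. Leaving out each pair in turn, 0 of 8 passed, and the median difference of the 8 genes, -0.03 on all pairs, ranged from -0.065 to 0.036. Of the 14 alternatives, 8 leave the differences as they are and change the test, the adjustment or the probe sets tested. Under the other 6, 39 of 48 values of single genes kept their direction and 9 reversed. With the arrays centred on their medians, Col1a2 came to 0.024, Col3a1 to 0.017, Pdgfra to 0.028 and Twist1 to 0.030, where centring raised pair 1 as a whole. With a pair left out, Col1a1 ranged from -0.025 to 0.128, Col1a2 from -0.063 to 0.017, Col3a1 from -0.135 to 0.037, Pdgfra from -0.121 to 0.035 and Pdgfrb from -0.072 to 0.151. Twist2 ranged from 0.023 to 0.128, Vim from -0.098 to -0.025 and Twist1 from -0.058 to -0.005. The sign of Col1a1 turned without replicate 2, that of Pdgfrb without replicate 1 and those of Col1a2, Col3a1 and Pdgfra without replicate 3. The median of control 1 minus the other controls, -0.04 as deposited, was -0.20 after centring, and leaving out control replicate 2 or control replicate 3 it ranged from -0.139 to 0.086. Over all probe sets, limma called 0, against 3 with no block, 94 in IBMT, 96 with trend, 193 in the Cyber-T type test, 91 above the median level, 57 with the arrays centred, 5 without replicate 2 and 11 without replicate 3. Limma also called 0 with Benjamini-Hochberg adjustment, after quantile or cyclic loess normalization and without replicate 1. Where no probe set at all was called, 0 of the 8 genes passing says nothing particular to these genes. The methods' t-test called 1498 at an unadjusted p under 0.05 and 1 after Benjamini-Hochberg adjustment. The marker lists were not run. Signal over background is unknown here.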
